A study of Mus musculus with 2 samples.

Results

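The genes described here are 38 mouse genes of SREBP-driven sterol and fatty acid synthesis. They comprise 19 enzymes of sterol synthesis, 6 SREBP regulators and 13 genes of fatty acid synthesis and handling. They were taken by gene symbol from a list of known pathway members. The list was drawn up with earlier results of these data known. All 38 were found among the 22088 genes with a symbol in the deposited table, and each was represented by its probe set with the highest mean signal.

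Polysomal RNA of cultured macrophages was hybridised to 2 Affymetrix Mouse Gene 1.0 ST arrays, 1 for wild-type and 1 for Oasl1-/- cells. The macrophages (BMDM) came from bone marrow of the C57BL/6J strain and were differentiated over 7 days with 20% L929 cell supernatant. Both cultures then received poly(I:C), which mimics viral double-stranded RNA, at 10 µg/ml for 12 h. RNA came from fractions 9 to 11 of 16 collected from sucrose gradients of 10% to 50%. Oasl1 encodes an interferon-induced protein that is known to restrain translation of the transcription factor IRF7. The number of animals behind each culture, their age and sex, and the deleted part of Oasl1 are not given in the sources used here. There was no unstimulated culture, no other time and no array of total RNA among the samples analysed here. A lower polysomal signal can therefore reflect less of an mRNA or a smaller share of it on polysomes, and fewer cells of a type and less RNA per cell cannot be told apart. With 1 array per genotype no replicate error exists and no test could be run. All comparisons below are descriptions of these 2 arrays.

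Sterol regulatory element-binding proteins (SREBPs) are transcription factors made as membrane proteins of the endoplasmic reticulum. When sterols are scarce, the escort protein SCAP carries them to the Golgi, where proteases release the active part, which enters the nucleus and induces genes of sterol and fatty acid synthesis. When sterols are abundant, INSIG proteins hold SCAP back. Macrophages are known to change lipid synthesis when they meet microbial or viral stimuli, and interferon signalling is known to restrain sterol synthesis in them.

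The arrays carried macrophage RNA with little sign of other cells. All 10 macrophage markers were past a floor of 7 on the log2 scale, with wild-type signals of 8.40 to 12.77 and Oasl1-/- signals of 8.99 to 12.78. None of the 39 markers of dendritic cells, neutrophils, T cells, B cells, fibroblasts, adipocytes or erythroid cells passed it. The nearest were the fibroblast genes Col1a1, at 6.56 (wild-type) and 6.94 (Oasl1-/-), and Col1a2, at 6.36 and 6.70. On the linear scale the summed signal of the 5 adipocyte markers was 151 (wild-type) and 181 (Oasl1-/-), and that of the 6 fibroblast markers was 304 and 363. Oasl1 itself had signals of 10.70 (wild-type) and 9.14 (Oasl1-/-), a log2 difference of -1.57. Its remaining signal exceeded 7.34, the top of the interval that held the middle 95% of that array's intron controls. A gene counted as measured when the higher of its 2 signals was at least 7, and 7835 genes did.

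Of the 38 genes, 33 had a lower signal in the Oasl1-/- array. Malic enzyme, Me1, was below the floor on both arrays, and the other 37 were past it. Mvk, Elovl6 and Acsl3 passed through the wild-type array alone. Such genes have to be lower in the other array, so counts are also given for the 34 genes past the floor on both. The median difference of the 37 genes was -0.59 on the log2 scale, a 1.50-fold lower signal, where the median of all 7835 genes was -0.09. Over all 38 genes the median was -0.59 too, and without a floor that of all 22088 genes was 0.03, with 42.7% lower. The quartiles of the 37 genes were -0.85 and -0.35, and those of the 7835 genes -0.30 and 0.14. Lower signals as such were common past the floor, since 60.6% of the 7835 genes were below 0.

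At least 2-fold lower signals were found for 8 of the 37 genes, 21.6%, where 0.651% of all genes were that much lower. These 8 made up 15.7% of the 51 genes that were at least 2-fold lower. None was at least 2-fold higher, as were 1.57% of all genes. At 1.5-fold, 19 of the 37 genes were lower, 51.4%, against a background of 6.28%, and none was higher, against 5.27%. Over the 34 genes past the floor on both arrays, 6 were at least 2-fold lower, with a background of 0.320% under that same rule. The backgrounds moved with the scaling of the arrays. After centring on the median gene, 0.408% of genes were at least 2-fold lower and 1.98% higher, and 3.94% were at least 1.5-fold lower and 7.30% higher. Of the 37 genes 7 were then at least 2-fold lower and 15 at least 1.5-fold lower.

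**Figure D1:**
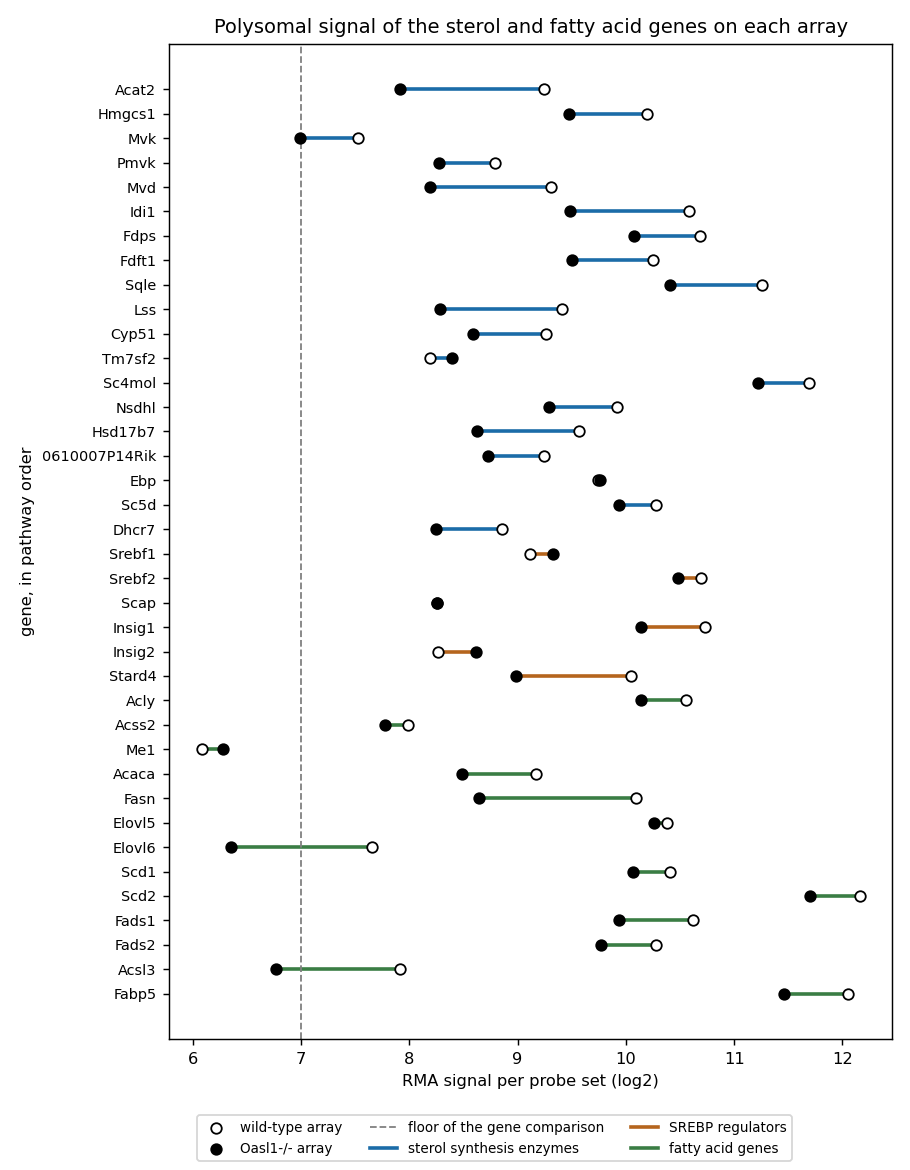
Log2 RMA signal of each of the 38 genes on the wild-type array (open points) and the Oasl1-/- array (filled points), in pathway order, with lines coloured by group and the floor of 7 dashed. Filled points lie to the left of open points for 33 genes, by 1.45 for Fasn and by less than 0.01 for Scap.

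The 19 sterol enzymes had a median difference of -0.63 (1.54-fold lower). Of these, 17 were lower, 89.5% against 60.6% of all genes. At least 1.5-fold lower were 12 of the enzymes, 63.2% against 6.28%, and at least 2-fold lower 4, 21.1% against 0.651%. Their promoters are shown here for 3 enzymes with lower signals, for the fatty acid synthase gene Fasn and the feedback regulator Insig1, which also had lower signals, and for Tm7sf2, a sterol enzyme with a higher one. Each line gives the 250 bases before the transcription start from RefSeq, on build GRCm38.p6, 5′ to 3′ on the gene's strand. Capitals mark the sterol regulatory element core TCACNCCAC and the CCAAT box, on either strand, so that ATTGG is a CCAAT box on the opposite strand.
Hmgcs1, chr13:119690101-119690350, plus strand: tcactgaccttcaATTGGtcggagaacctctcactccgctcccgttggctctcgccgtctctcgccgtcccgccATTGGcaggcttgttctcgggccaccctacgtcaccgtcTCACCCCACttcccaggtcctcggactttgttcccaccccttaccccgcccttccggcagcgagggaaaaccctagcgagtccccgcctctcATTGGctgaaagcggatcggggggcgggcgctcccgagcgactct
Mvd, chr8:122443423-122443672, minus strand: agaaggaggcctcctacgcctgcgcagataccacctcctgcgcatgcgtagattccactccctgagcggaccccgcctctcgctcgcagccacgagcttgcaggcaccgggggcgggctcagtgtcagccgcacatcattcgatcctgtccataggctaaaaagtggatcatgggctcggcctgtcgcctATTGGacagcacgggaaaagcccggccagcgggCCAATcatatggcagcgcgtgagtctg
Lss, chr10:76531355-76531604, plus strand: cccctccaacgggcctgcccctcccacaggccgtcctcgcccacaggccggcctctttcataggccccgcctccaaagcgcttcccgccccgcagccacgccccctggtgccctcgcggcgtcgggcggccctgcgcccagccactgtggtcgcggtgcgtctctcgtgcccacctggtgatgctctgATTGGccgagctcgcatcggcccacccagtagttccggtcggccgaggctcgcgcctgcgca
Fasn, chr11:120824548-120824797, minus strand: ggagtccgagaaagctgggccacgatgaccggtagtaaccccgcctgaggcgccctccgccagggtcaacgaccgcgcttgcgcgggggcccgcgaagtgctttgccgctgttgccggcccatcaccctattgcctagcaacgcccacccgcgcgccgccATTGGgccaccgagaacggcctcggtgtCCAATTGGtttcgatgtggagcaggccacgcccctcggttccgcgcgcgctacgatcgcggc
Insig1, chr5:28071162-28071411, plus strand: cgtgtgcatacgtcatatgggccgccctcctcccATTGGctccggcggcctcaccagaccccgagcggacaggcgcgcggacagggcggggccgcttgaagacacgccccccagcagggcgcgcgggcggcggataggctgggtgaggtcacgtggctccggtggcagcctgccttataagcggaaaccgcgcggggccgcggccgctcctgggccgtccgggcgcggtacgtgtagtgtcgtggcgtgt
Tm7sf2, chr19:6067851-6068100, minus strand: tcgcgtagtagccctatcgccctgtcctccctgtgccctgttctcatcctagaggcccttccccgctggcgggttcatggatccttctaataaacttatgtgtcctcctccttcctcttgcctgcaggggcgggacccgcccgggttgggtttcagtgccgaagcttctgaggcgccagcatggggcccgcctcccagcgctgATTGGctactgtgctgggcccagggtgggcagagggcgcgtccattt
All 6 windows hold a CCAAT box, including that of Tm7sf2, and that of Hmgcs1 alone holds the element core, from 137 to 129 bases before the start. These 6 were picked for display, so they give no share. Over all 39 windows matched to the listed genes, 64.1% hold a CCAAT box, against 37.2% of windows of measured genes. The windows of Acat2 and Elovl6 hold none, and no other of the 39 holds the element core.

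The mevalonate arm of the pathway, which turns acetyl-CoA into isopentenyl diphosphate, was lower at each of the 5 enzymes measured, where 60.6% of all genes were lower. Of these 5, Mvk passed the floor through the wild-type array alone and so had to be lower. Acat2, which joins acetyl-CoA units into acetoacetyl-CoA, had log2 signals of 9.24 (wild-type) and 7.91 (Oasl1-/-). Its difference of -1.33 left 39.8% of the wild-type signal and was the 11th lowest of the 7835 genes. Its probe set of 15 probes lies at chr17:13135756-13153577 on the minus strand (NCBIM37). Hmgcs1, the synthase of hydroxymethylglutaryl-CoA, differed by -0.72, from 10.20 to 9.48. This is the gene whose promoter holds the element core printed above. Mevalonate kinase, Mvk, had signals of 7.53 and 6.99, so it was at the floor in the Oasl1-/- array and its difference of -0.54 is poorly bounded. Phosphomevalonate kinase, Pmvk, went from 8.79 to 8.27, a difference of -0.52. Mvd, the decarboxylase that yields isopentenyl diphosphate, went from 9.31 to 8.19, a difference of -1.12 or 2.17-fold. It lies at chr8:124957501-124967322, minus strand. The 2 genes past 2-fold thus stood at the start and the end of this arm, and the median of the 5 was -0.72. Without Mvk, the 4 genes past the floor on both arrays had a median of -0.92.

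From isopentenyl diphosphate to lanosterol all 5 enzymes were at least 1.5-fold lower, as were 6.28% of all genes. Their median of -0.85 was below the -0.72 of the 5 mevalonate enzymes. Of those, the 4 past the floor on both arrays had a lower median, -0.92. Idi1, the isomerase that makes dimethylallyl diphosphate, had signals of 10.58 and 9.48, a difference of -1.10. Farnesyl diphosphate synthase, Fdps, whose product also feeds protein prenylation, differed by -0.61, from 10.69 to 10.07. It was under 1.5-fold after centring (-0.52) and quantile normalization (-0.57), which left 4 of the 5. Fdft1, the squalene synthase and first enzyme committed to sterols, went from 10.25 to 9.50, a difference of -0.75. Squalene epoxidase, Sqle, a rate-limiting enzyme, went from 11.25 to 10.41, a difference of -0.85 or 1.80-fold. Lanosterol synthase, Lss, which closes the sterol rings, went from 9.41 to 8.28, a difference of -1.13 or 2.19-fold. Its 44 probes lie at chr10:75994363-76018226 on the plus strand. Counted from the lowest difference, Lss, Mvd and Idi1 had ranks 29, 30 and 31 of 7835.

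After lanosterol the differences were smaller and less uniform. The 9 genes had a median of -0.52, with 7 lower, 77.8% against 60.6% of all genes. At least 1.5-fold lower were 4, 44.4% against 6.28%, and none was 2-fold lower, against 0.651%. Hsd17b7, the ketoreductase of C4 demethylation, was the lowest at -0.94, from 9.57 to 8.62. Cyp51, the lanosterol demethylase, differed by -0.67, from 9.26 to 8.58. The dehydrogenase gene Nsdhl differed by -0.63 and Dhcr7, the last reductase of the route to cholesterol, by -0.61. The gene 0610007P14Rik is now named Erg28, after a yeast protein that is a scaffold of the C4 demethylation enzymes. The mouse gene differed by -0.52. Sc4mol, now named Msmo1, is the methyl oxidase of that step and was bright on both arrays, at 11.69 and 11.22, a difference of -0.47. Sc5d, the desaturase gene, differed by -0.35, from 10.28 to 9.93. The genes of C4 demethylation thus ranged from -0.94 to -0.47.

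Tm7sf2 and Ebp were the 2 sterol enzymes that were not lower. Tm7sf2, a sterol reductase of the endoplasmic reticulum and nuclear envelope, had signals of 8.19 and 8.40, a difference of 0.20. Ebp, the sterol isomerase, was level at 9.75 and 9.76, a difference of 0.01. Relative to the median gene their differences were 0.29 and 0.10. Both were past the floor on each array.

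The 6 regulators had no common direction, with a median of -0.11 that was close to that of all genes. Srebf2, which encodes the SREBP that mainly drives sterol genes, had signals of 10.69 and 10.48, a difference of -0.21. Srebf1, which encodes the forms that mainly drive fatty acid genes, had 9.12 and 9.32, a difference of 0.21. Scap, the escort gene, was level, at 8.26 on both arrays. The mRNAs of the 2 transcription factors and their escort differed by 1.00-fold to 1.16-fold. SREBP activity depends on cleavage of the protein, which these arrays do not measure.

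The INSIG genes stood on opposite sides. Insig1, a known SREBP target that acts as feedback, had signals of 10.73 and 10.14, a difference of -0.59 or 1.50-fold lower. Insig2, which is not known as a sterol-induced SREBP target, had signals of 8.27 and 8.62, a difference of 0.36 or 1.28-fold higher. The difference of Insig2 exceeded that of Insig1 by 0.94 on the log2 scale, and this gap within the arrays does not depend on centring. Insig1 lies at chr5:28397907-28405201 on the plus strand and Insig2 at chr1:123200930-123229157 on the minus strand (NCBIM37). Stard4, a sterol transfer protein gene that is itself sterol-regulated, had signals of 10.04 and 8.99. Its difference of -1.05, 2.08-fold lower, was the 38th lowest of all genes, although it was under 2-fold, at -0.96, after centring on the median gene.

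**Figure D2:**
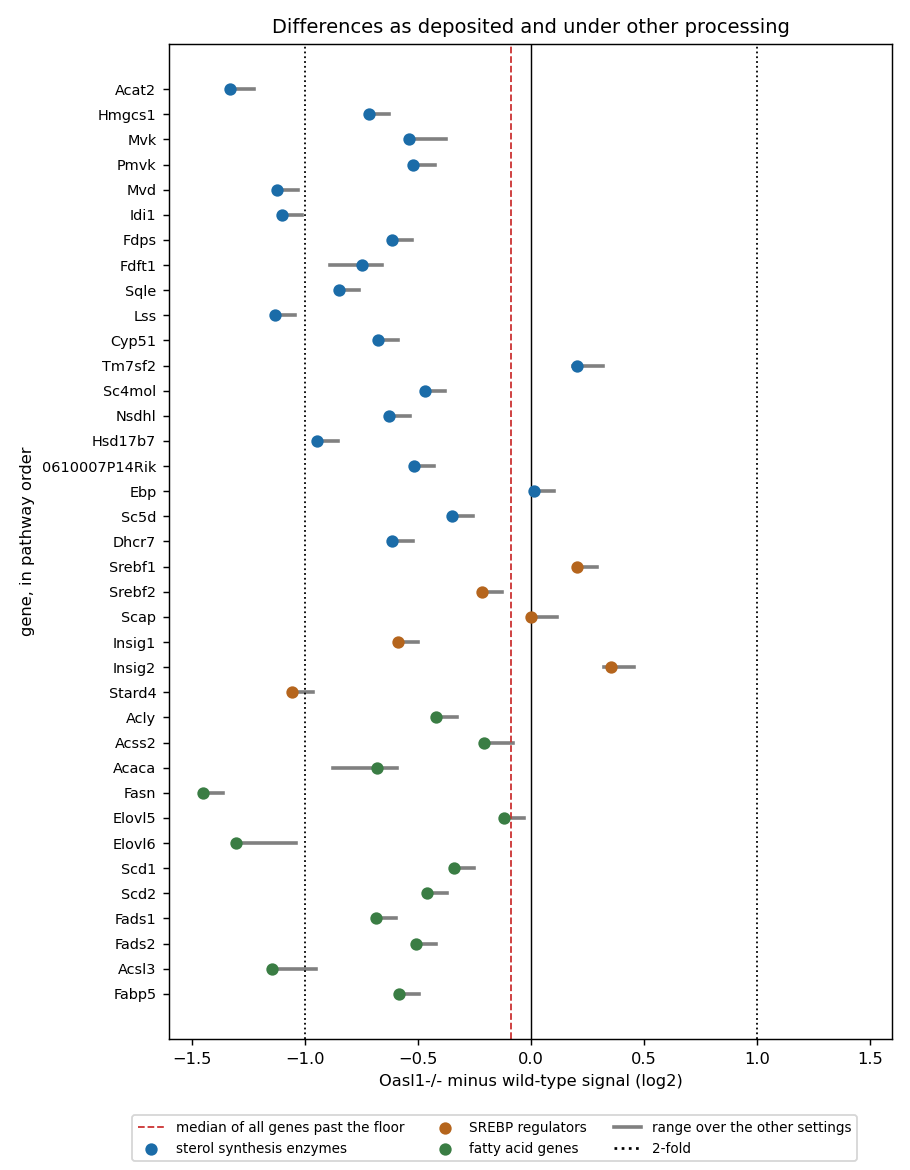
Oasl1-/- minus wild-type log2 signal for the 37 genes past the floor, in pathway order, with points coloured by group as deposited and grey bars spanning the range over other scalings, a pseudocount and other choices of probe set. Of all points, 32 lie below the dashed median of all genes (-0.09), and the bar of Scap reaches from 0.00 to 0.12.

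Genes of fatty acid synthesis were lower too. All 12 past the floor were lower, where 60.6% of all genes were, and their median was -0.55. At least 1.5-fold lower were 5, against 6.28% of all genes, and at least 2-fold lower 3, against 0.651%. Of these 12, Elovl6 and Acsl3, both at least 2-fold lower, passed through the wild-type array alone and so had to be lower. The 10 genes past the floor on both arrays had a median of -0.48, with 3 at least 1.5-fold lower and 1 at least 2-fold lower. Under that same rule 4.67% and 0.320% of all genes were that much lower. Fatty acid synthase, Fasn, had log2 signals of 10.09 and 8.64. Its difference of -1.45, a 2.73-fold lower signal that left 36.6% of the wild-type level, was the 5th lowest of the 7835 genes. Its 47 probes lie at chr11:120667272-120685861 on the minus strand. Acaca, the acetyl-CoA carboxylase that commits carbon to fatty acids, went from 9.17 to 8.49, a difference of -0.68. The genes that supply precursors differed less. Acly, which makes cytosolic acetyl-CoA from citrate, differed by -0.42, from 10.55 to 10.14, and Acss2, which makes it from acetate, by -0.21, from 7.99 to 7.78. Me1, a source of NADPH, had 6.09 and 6.28, which is within the range of intron controls, and is not described further.

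Elongases and desaturases differed from one another. Elovl6, which extends palmitate, had signals of 7.66 and 6.35, a difference of -1.30 that was the 13th lowest. Its Oasl1-/- signal was under the floor, so the size is poorly bounded, and it was -1.04 with a pseudocount of 32. Elovl5, which extends polyunsaturated chains, was bright and nearly level, at 10.38 and 10.26, a difference of -0.12. The desaturases lay between -0.69 and -0.34. Fads1, the delta-5 desaturase, differed by -0.69 (10.62 to 9.93) and its neighbour Fads2, the delta-6 desaturase, by -0.51 (10.28 to 9.77). Scd2 and Scd1, stearoyl-CoA desaturases that lie next to each other on chromosome 19, differed by -0.46 (12.16 to 11.70) and -0.34 (10.41 to 10.07). Scd1 and Scd2 are close relatives, so the division of signal between them is uncertain.

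Acsl3 activates fatty acids for lipid droplet growth and had signals of 7.91 and 6.77. Its difference of -1.14 was past 2-fold as deposited but not after removal of a loess trend (-0.995) or with a pseudocount of 32 (-0.95). Its Oasl1-/- signal was under the floor. Fabp5, the fatty acid binding protein abundant in macrophages, was among the brightest of these genes, at 12.05 and 11.46, a difference of -0.58, just short of 1.5-fold.

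Several of these genes have more than 1 probe set under the same transcript accession, which checks the values within an array but is no replicate. For Idi1 the brighter probe set lies at chr2:53553379-53555893 and the other at chr13:8885116-8889881, and they differed by -1.10 and -1.08. For Fabp5 the used set spans 694 bases of chromosome 9 and the other lies on chromosome 3, with differences of -0.58 and -0.56. For Acaca the used set spans 6093 bases of chromosome 12 and the other 270012 bases of chromosome 11, with differences of -0.68 and -0.87. For Fdft1 both lie on chromosome 14, with -0.75 for the used set of 32644 bases and -1.03 for one of 1098 bases. All of these pairs were lower in the Oasl1-/- array. Short second loci can hold near-identical copies that share probes, so which locus gave the signal is uncertain for these 4 genes. The second set of Scap spans 384 bases on the opposite strand and was near background, at 5.55 and 5.31.

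Many products of these genes are membrane proteins of the endoplasmic reticulum. Of the 37 genes, 23 carry an endoplasmic reticulum term in the array annotation, and their median difference was -0.51, with 19 lower. The other 456 genes past the floor with such a term had a median of 0.16, with 30.5% lower and 12 of them, 2.63%, at least 1.5-fold lower. The 14 genes without the term had a median of -0.65 and all were lower. The medians of the 23 genes and of the other genes of their compartment thus had opposite signs. The annotation term lipid biosynthetic process was treated in the same way. The 26 listed genes with it had a median of -0.61, with 14 at least 1.5-fold lower. The 34 other genes with it had a median of -0.01, with 2 at least 1.5-fold lower. These term groups were chosen after the data were seen.

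**Figure D3:**
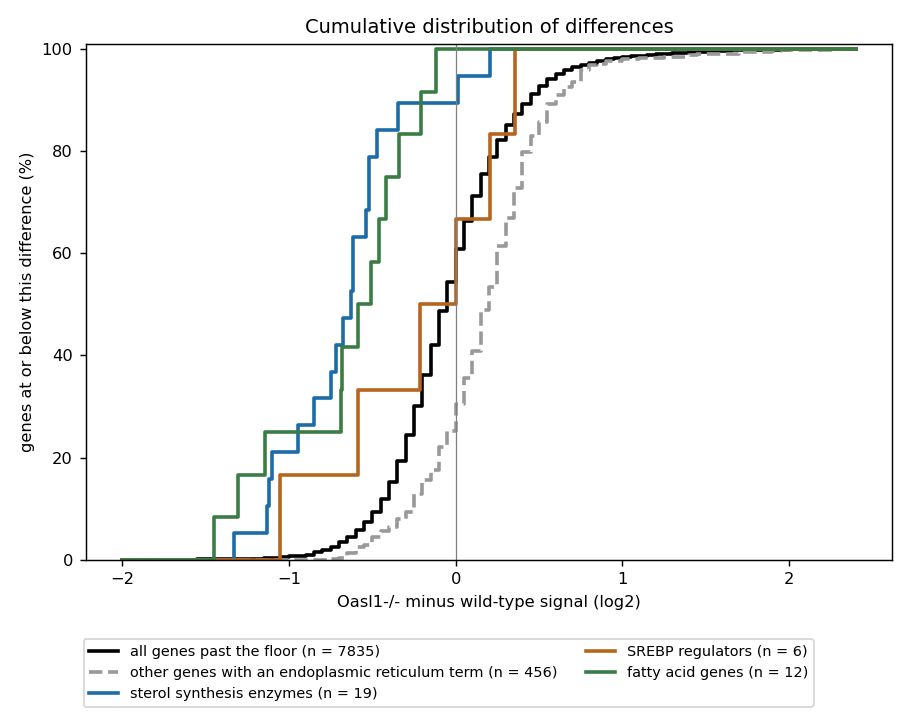
Cumulative share of genes (vertical axis, %) at or below each Oasl1-/- minus wild-type log2 difference (horizontal axis), for all 7835 genes past the floor, 456 other genes with an endoplasmic reticulum term, and the 3 groups of sterol and fatty acid genes. The curves of sterol enzymes (median -0.63) and fatty acid genes (median -0.55) lie to the left of all genes (median -0.09), the median of the regulators (-0.11) is close to that of all genes although Stard4 (-1.05) and Insig1 (-0.59) lie to the left, and other endoplasmic reticulum genes (median 0.16) lie to the right.

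Promoter sequence was available for 30 of the 38 genes, as 39 windows from 250 bases before to 50 after a start. Fdps, Fdft1, Sqle, Stard4, Scd1, Scd2, Fads1 and Fabp5 were not matched. A CCAAT box, bound by NF-Y, a factor known to act with SREBPs, was present on either strand in 64.1% of the 39 windows. The share was 37.4% over all 32851 windows of the table and 37.2% over 7683 windows of genes past the floor. Among the 3 groups it was 73.7% of 19 windows for sterol enzymes, 60.0% of 10 for fatty acid genes and 50.0% of 10 for regulators. The GC box GGGCGG, bound by Sp1, was in 74.4% of the windows, against 35.7% of all and 65.0% of those of measured genes, so its share was nearer to that of measured genes. The E-box CACGTG was in 17.9%, against 7.15% and 11.1%. The strict element core TCACNCCAC was in 1 window, that of Hmgcs1, or 2.56%, against 1.24% of all windows. Known elements vary around this core, and no match says only that these letters are not in the window. Windows of 1 gene overlap in part and are not independent. Among genes with large differences, the windows of Acat2 and Elovl6 hold no CCAAT box, while those of Tm7sf2 and Ebp, which were not lower, hold 1 and 2.

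Other genes of the pathway were described from lists of non-members. Genes whose products cleave SREBPs or turn over INSIG proteins were mostly higher. The 11 genes, all past the floor, had a median of 0.13, with 3 lower, the lowest of them at -0.06. None was at least 1.5-fold lower, and 2 were at least 1.5-fold higher, 18.2% against 5.27% of all genes. Rnf139, a ubiquitin ligase of the endoplasmic reticulum linked to sterol regulation, had signals of 7.94 and 8.81, a difference of 0.87. Erlin2 and Erlin1, membrane scaffolds of sterol-regulated degradation, differed by 0.62 and 0.54. Relative to the median gene Erlin1 was at 0.63, which is past 1.5-fold. The SREBP protease genes Mbtps1 and Mbtps2, named after their values were seen, were nearly level, at 0.11 and 0.13. Rnf139 and the erlins are membrane proteins of the endoplasmic reticulum, whose genes outside the 38 had the median of 0.16 given above.

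Genes that use isoprenoids outside sterol synthesis were close to the median gene. The 10 past the floor of the non-sterol isoprenoid branch had a median of -0.08, with none at least 1.5-fold different. The lowest were Pdss1, a coenzyme Q synthesis gene, at -0.26, and the Rab prenylation genes Rabggtb and Rabggta, each at -0.23. Idi1 and Fdps, which serve both routes, were at least 1.5-fold lower as deposited, and Fdps was under 1.5-fold after centring and quantile normalization, as given above.

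Lipogenic genes outside the 38 were mixed. Of 14 past the floor, 3 were at least 1.5-fold lower, 21.4% against 6.28% of all genes. At that fold 1 was higher, 7.14% against 5.27%, and the median was 0.04. Pcyt2, of phosphatidylethanolamine synthesis, differed by -0.93 (8.47 to 7.54). Aacs, the acetoacetyl-CoA synthetase of cytosolic lipid synthesis, differed by -0.83 (9.22 to 8.40). Mid1ip1, an activator of acetyl-CoA carboxylase named after its value was seen, differed by -0.60. Relative to the median gene Mid1ip1 was at -0.51, which is under 1.5-fold. Acsl1, an acyl-CoA synthetase known to be induced in inflammatory macrophages, was higher by 0.80 (10.38 to 11.18), opposite to its relative Acsl3. Lpin1, a phosphatidate phosphatase gene and known SREBP target also named after its value was seen, had 6.96 and 5.35. It was just under the floor on the wild-type array and was not counted.

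Genes that supply NADPH had a median of -0.22 over 9, with 1 at least 1.5-fold lower, 11.1% against 6.28% of all genes. The 1 gene was Idh1, the cytosolic isocitrate dehydrogenase and a known SREBP target, at -0.59 (10.84 to 10.26). Relative to the median gene Idh1 was at -0.50, which is under 1.5-fold. Me2 and Idh2, both mitochondrial, differed by -0.42 and -0.36. Sterol storage and transport genes had a median of 0.05 over 11. Stard3, a sterol transfer protein of late endosomes, differed by 0.67, Npc2, which exports cholesterol from lysosomes, by 0.46, and Osbpl2, an oxysterol-binding relative, by -0.36.

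Liver X receptors sense oxysterols and drive cholesterol export. Most genes of a list of receptors, genes linked to them and the oxysterol-making Ch25h were higher. The 9 genes past the floor had a median of 0.30, with 2 lower, 22.2% against 60.6% of all genes. None was at least 1.5-fold lower, against 6.28%. The exporter gene Abcg1 differed by 0.65 (11.34 to 11.98) and the receptor gene Nr1h3 by 0.44 (7.96 to 8.40). Ch25h makes an oxysterol that is known to bind INSIG proteins and to hold SREBPs in the endoplasmic reticulum. It had log2 signals of 8.16 (wild-type) and 10.38 (Oasl1-/-), a difference of 2.22. Ch25h was higher on the Oasl1-/- array, where 33 of the 38 genes were lower, and any part of Ch25h in those signals was not tested.

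**Figure D4:**
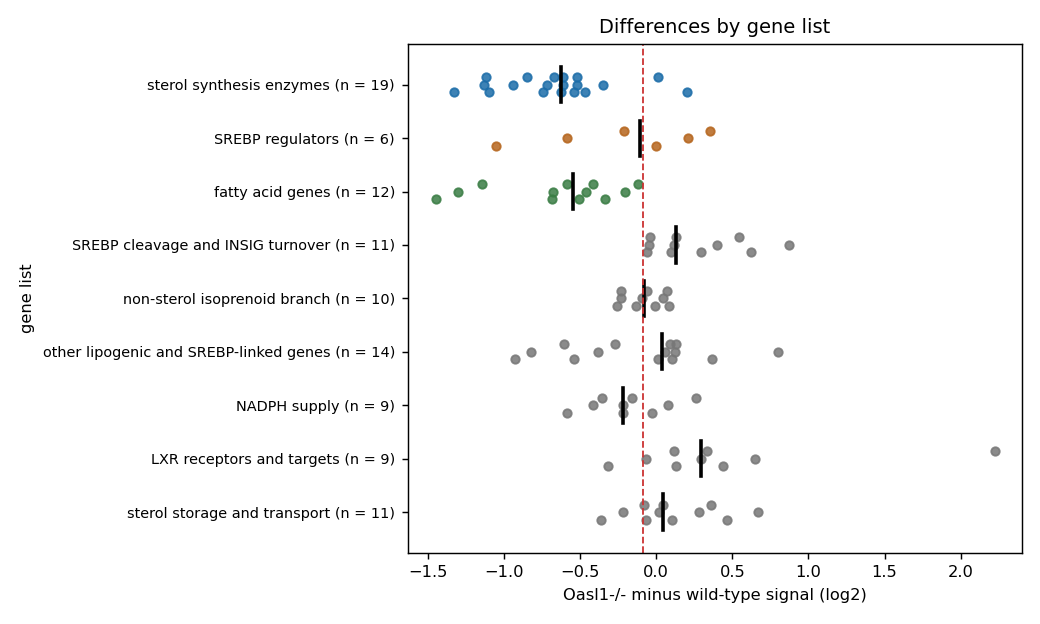
Oasl1-/- minus wild-type log2 difference (horizontal axis) of each gene past the floor in the 3 groups of sterol and fatty acid genes (coloured) and 6 related lists (grey), with black bars at list medians and a dashed line at the median of all genes (-0.09). Sterol enzymes and fatty acid genes have the lowest medians, -0.63 and -0.55, and the far right point is Ch25h at 2.22.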

How the data were processed

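The authors deposited RMA log2 signals for 35556 probe sets on each of 2 arrays, 1 per genotype, per the submitters' processing notes and the series design text, which name GCOS, RMA, Expression Console (1.1) and affy for R (2.9.2). RMA corrects background, gives both arrays a shared distribution of probe values and summarises probes, so it can hide a shift that all mRNAs share. The deposited signals per probe set still differed in distribution, with medians of 5.04 (wild-type) and 5.13 (Oasl1-/-). The deposited log2 ratio was Oasl1-/- minus wild-type in all 35556 rows, within 0.0001, and the deposited fold, a linear ratio, equalled 2 to its absolute power within 0.001. The other deposited table repeats these log2 values. Coordinates of probe sets are those of the file (NCBIM37), and promoters are RefSeq's on GRCm38.p6.

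Here 25465 probe sets with 1 symbol gave 22088 genes, each by its brightest probe set, and 7835 had a signal of at least 7 on either array. The middle 95% of 5222 intron controls reached up to 7.13 (wild-type) and 7.34 (Oasl1-/-). Differences are on the log2 scale, and calls are folds of at least 2 or 1.5. Precision is limited by having 1 array per genotype. Alternatives were centring, loess (span 0.3), quantile normalization, a pseudocount of 32, floors of 6, 8 or none and another choice of probe set. Python 3.11.15, pandas 2.3.3 and statsmodels 0.14.6 were used, and the procedure was tested on simulated data. The 38 genes, the lists and the tests were chosen with earlier results of these data known. Named genes were all 38, Oasl1, and in each related list the 3 with the largest absolute difference past the floor. Others are said to be named after their values were seen. Of the related lists 1 of 23 lipogenic symbols was not matched.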

Additional observations from a re-analysis of the deposited data

How the results depend on the processing

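The medians of the 3 groups and the counts at 2-fold and 1.5-fold kept their direction, and kept within 0.1 on the log2 scale or 1.5 times the count, in 69 of 70 comparisons with other settings. The exception was the median of the SREBP regulators, -0.21 instead of -0.11 with the mean of all probe sets, where Scap falls under the floor and 5 genes remain. At least 2-fold lower genes numbered 6 to 8 and at least 1.5-fold lower ones 15 to 19 over all settings, and none was 1.5-fold higher in any. Of single genes, Stard4 (-0.96 after centring) and Acsl3 (-0.995 after loess, -0.95 with the pseudocount) lost 2-fold. Fdps, Nsdhl, Dhcr7 and Insig1 lost 1.5-fold after centring, at -0.52, -0.54, -0.52 and -0.50, Fdps, Dhcr7 and Insig1 also after quantile normalization, and Dhcr7 and Insig1 also after loess and with the pseudocount. Fabp5 gained it after loess. Scap was the single gene that changed sign, from a difference of less than 0.01. The background moved more. At least 2-fold lower were 51 of 7835 genes (0.651%) as deposited, 32 (0.408%) after centring, 27 (0.345%) after loess and 25 (0.319%) with the pseudocount. Other floors also changed the number of genes counted. A floor of 8 gave 29 of 5611 (0.517%), a floor on both arrays 23 of 7177 (0.320%) and none 77 of 22088 (0.349%). At least 1.5-fold lower were 492 genes (6.28%) as deposited, 309 (3.94%) after centring, 266 (3.4%) after loess and 323 (4.12%) with the pseudocount. With a floor of 8 they were 290 of 5611 (5.17%). At least 1.5-fold higher were 413 (5.27%) as deposited and 641 of 22088 (2.9%) without a floor. The widest probe set per gene and a floor on both arrays were chosen after seeing the data. No paired analysis was possible because there is 1 array per genotype. RMA, the shared preparation of each culture and the missing replicates limit every value, and signals near 7 are poorly bounded.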
